A study of Homo sapiens with 3 samples.

Results

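The genes of the axon guidance ligand and receptor families were examined in CAL27 cells, an established line of oral squamous cell carcinoma (OSCC), and in 2 drug-resistant lines derived from it. The members were chosen by gene symbol: the semaphorins of classes 3 to 7, their plexin and neuropilin receptors, the ephrins and Eph receptors, the Slits and Robos, and the netrins with DCC and the UNC5 receptors. They made up 69 of the 19220 genes listed in the deposited tables, and 57 of them averaged 10 counts or more per library and were compared, as the tested members. The families were selected on the ratios of these same libraries, in which ROBO1 had the largest rise of all tested genes, so its ratio and the counts of members below are descriptions and not independent evidence.

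RNA-seq was performed on total RNA of the 3 lines, with 1 library per line used here. Parental CAL27 cells, labelled WT, grew without drug. CAL27/5FU cells, labelled resistant to 5-fluorouracil (5FU), were selected in rising 5FU concentrations and then kept in 10 µM 5FU, and CAL27/OXA cells, labelled resistant to oxaliplatin (OXA), were kept in 10 µM OXA. All 3 lines share the CAL27 background, each resistant line is a single derivative, and a stable trait of a line cannot be told apart from the presence of the drug in its medium. The libraries held 37297713 to 43455488 counts. All 10 squamous epithelial markers had at least 10 counts in every library, with a summed level of 14923 CPM (counts scaled to library size) in CAL27, against 3488 CPM in CAL27/5FU and 4909 CPM in CAL27/OXA. KRT5 held the largest part of this sum, with 286124, 46083 and 72716 counts. In CAL27/5FU, KRT5 (log2 ratio to CAL27 -2.64), KRT6A (-2.48), KRT14 (-5.94), KRT17 (-1.96), TP63 (-1.28), DSG3 (-1.27), PKP1 (-4.39) and SFN (-1.08) were more than 2-fold lower. CDH1 (-0.14) and EPCAM (0.39) were within 2-fold. In CAL27/OXA, KRT5 (-2.17), KRT6A (-3.63), KRT14 (-2.98), KRT17 (-2.22), DSG3 (-1.03) and PKP1 (-5.49) were lower. TP63 (0.13), SFN (0.08), CDH1 (-0.16) and EPCAM (0.03) were within 2-fold there. Neuron markers summed to between 13.4 and 16.9 CPM, with 4 to 5 of the 10 markers at 0 counts and SYT1 holding most of the sum. Endothelium markers summed to 7.88, 15.3 and 8.69 CPM, fibroblast markers to 42.1, 47.5 and 50.4 CPM, and leukocyte markers to 108, 85.3 and 127 CPM in the same order. COL1A1 held the largest part of the fibroblast sum (1387, 1068 and 1050 counts), while COL3A1, THY1 and POSTN had 0 counts in every library. CD68 held the largest part of the leukocyte sum (3143, 1827 and 5055 counts), while PTPRC had 2, 0 and 0. The part of these levels in the results below was not tested, and in bulk RNA fewer cells of a type and less RNA per cell cannot be told apart.

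Axon guidance molecules steer growing nerve fibers and migrating cells by attraction or repulsion. Semaphorins signal through plexins, with neuropilins as co-receptors for most secreted forms, and Slits repel through Robo receptors. Ephrins, which are bound to the membrane, pair with Eph receptor tyrosine kinases on the adjoining cell and signal in both directions, and netrins act through DCC and UNC5 receptors. Epithelia and carcinomas use the same molecules for cell contact, sorting and movement.

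Members past 2-fold were frequent in both resistant lines. In CAL27/5FU, 15 of the 57 tested members (26.3%) exceeded CAL27 by more than 2-fold, where the share of all 13676 tested genes was 8.46%, and 12 members (21.1%) were more than 2-fold lower, where the share of all genes was 6.72%. In CAL27/OXA, 18 members (31.6%) were higher, against 6.54% of all genes, and 19 (33.3%) were lower, against 9.28% of all genes. The members did not shift one way: their median log2 ratio was 0.02 in CAL27/5FU and -0.25 in CAL27/OXA, while their median absolute log2 ratio was 1.00 and 1.34, against 0.33 and 0.34 for all tested genes. Ratios are of counts scaled with TMM factors, on the log2 CPM scale with a prior count of 2. Each interval printed is an exact Clopper-Pearson 95% interval of the pair of counts, which covers counting error only and carries no prior count. The comparisons with CAL27 share the CAL27 library. Without replicates, no p-value is given for any difference. The whole interval was past 2-fold for 10 of the higher and 8 of the lower members in CAL27/5FU, and for 15 and 14 in CAL27/OXA. When the counts of the highest library were left out of the sum, 10 members had a mean over the 3 libraries under the filter. They were SEMA5A, SEMA5B, SEMA6D, EPHA4, EPHA6, EPHB1, ROBO2, NTN3, NTN5 and UNC5C. This is not the mean of the other libraries alone. A call for these members follows in part from the filter. Among the other 47 members, 12 were higher and 9 lower in CAL27/5FU, and 12 were higher and 15 lower in CAL27/OXA.

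**Figure D1:**
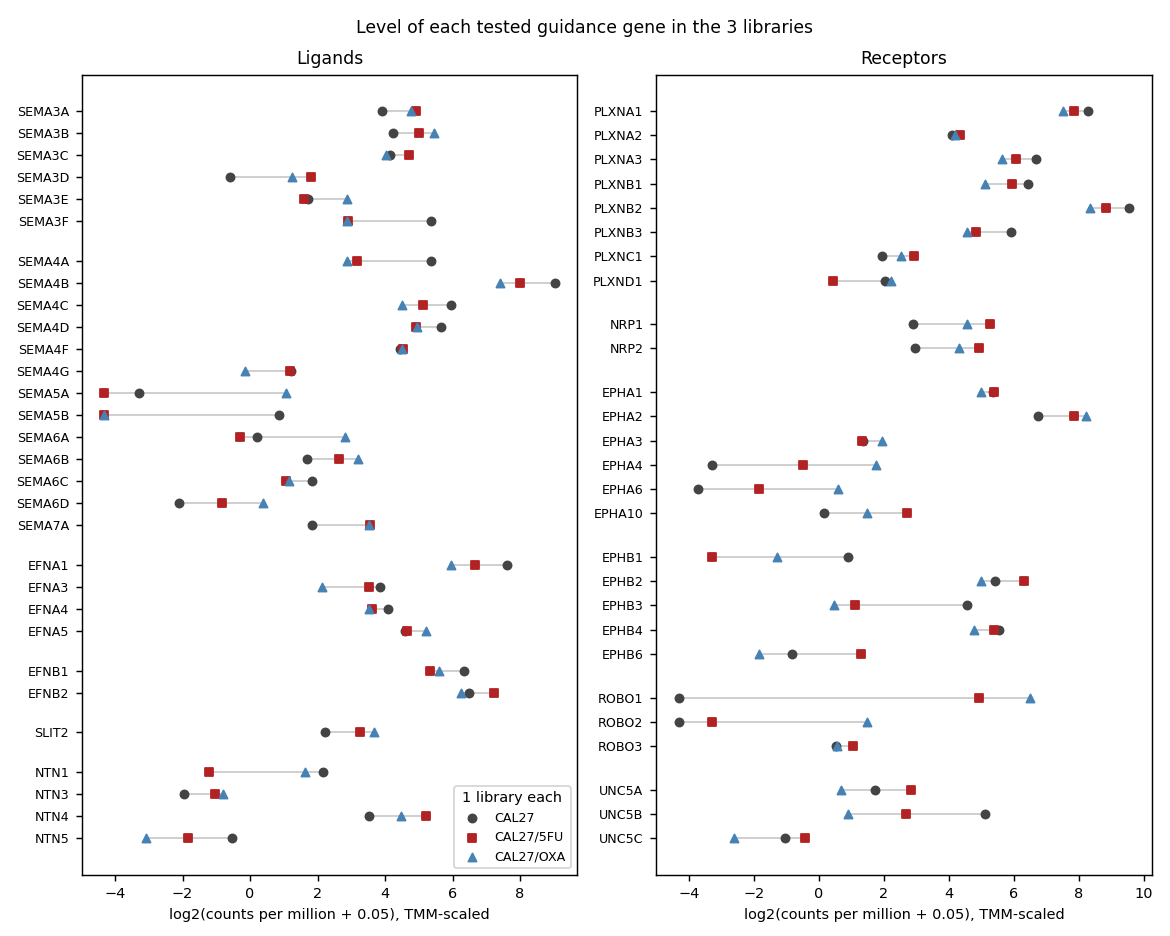
Level of each of the 57 tested members in the 3 libraries, as log2 of CPM with 0.05 added, ligands on the left and receptors on the right. ROBO1 runs from 0 counts in CAL27 to 4013 counts in CAL27/OXA, whereas SEMA3F, EPHB3 and UNC5B have their highest level in CAL27.

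Slit and Robo genes were led by ROBO1. ROBO1, a receptor whose binding of Slit repels axons, had 0 counts in CAL27 cells, 1186 counts in CAL27/5FU and 4013 counts in CAL27/OXA. CAL27 cells thus gave no read of the gene, while both resistant lines gave many. Against the floor of 3 counts, which is the upper limit that a count of 0 allows and equals 0.077 CPM in CAL27, ROBO1 was at least 393-fold higher in CAL27/5FU and at least 1173-fold higher in CAL27/OXA. These bounds take the floor as a fixed value, and the counting interval of the same pairs of counts had lower limits of 8.32 and 9.9 on the log2 scale. Between the resistant lines it was higher in CAL27/OXA, with a log2 ratio of 1.57 (95% interval 1.48 to 1.67). ROBO2, its neighbor on chromosome 3 and a Robo receptor of the same kind, had 0, 2 and 122 counts in CAL27, CAL27/5FU and CAL27/OXA. Against the same fixed floor, it was at least 35.7-fold higher in CAL27/OXA than in CAL27, and the counting interval had a lower limit of 4.84. No fold can be given for CAL27/5FU, where it lay at the floor. ROBO3, a divergent Robo, was low throughout at 54, 79 and 63 counts. SLIT2, a secreted Robo ligand, had 181 counts in CAL27 cells, 374 in CAL27/5FU and 565 in CAL27/OXA. Its level was thus lowest in the line without ROBO1 counts, with log2 ratios of 1.03 (0.78 to 1.30) and 1.44 (1.21 to 1.70). Per length, SLIT2 had 0.539, 1.25 and 1.62 FPKM in the 3 libraries, beside 0, 4.4 and 12.8 FPKM for ROBO1.

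ROBO1 lies on the minus strand of chromosome 3 (GRCh38, 78597239 to 79767998), and RefSeq lists windows before 2 of its starts. They are printed because the gene went from 0 counts to the largest ratio of all tested genes, and the counts per gene do not tell which start was used. Each window holds the 250 bases before a start, 5′ to 3′ on the strand of the gene, and here and below the letters CTTTGA, a core of TCF/LEF binding sequences, were searched for on both strands and would stand in capitals.
ROBO1, chr3:79767999-79768248, minus strand: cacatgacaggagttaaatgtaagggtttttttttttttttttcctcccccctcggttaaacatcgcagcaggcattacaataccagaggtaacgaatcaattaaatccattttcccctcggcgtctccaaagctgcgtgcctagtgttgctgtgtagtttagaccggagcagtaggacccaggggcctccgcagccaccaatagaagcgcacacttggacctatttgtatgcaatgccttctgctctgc
ROBO1, chr3:79019460-79019709, minus strand: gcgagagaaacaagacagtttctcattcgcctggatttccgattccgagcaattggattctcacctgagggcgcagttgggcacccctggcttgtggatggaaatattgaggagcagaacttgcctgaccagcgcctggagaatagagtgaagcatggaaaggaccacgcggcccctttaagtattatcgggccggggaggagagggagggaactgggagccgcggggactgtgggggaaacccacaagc
Neither window held CTTTGA. Of the 15655 windows of this length before starts of tested genes, 8.04% held it on either strand. A match or its absence describes these letters alone.

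Neuropilins, the co-receptors that bind secreted semaphorins and also VEGF, were higher in both resistant lines. NRP1 had 290 counts in CAL27 cells, 1498 in CAL27/5FU and 1051 in CAL27/OXA, and NRP2 had 297, 1183 and 869. Both genes were highest in CAL27/5FU. The log2 ratios of NRP1 were 2.35 (2.18 to 2.55) in CAL27/5FU and 1.66 (1.48 to 1.86) in CAL27/OXA. Those of NRP2 were 1.98 (1.8 to 2.18) and 1.35 (1.17 to 1.55). Their summed level per length was 2.86 FPKM in CAL27, 14.7 FPKM in CAL27/5FU and 9.03 FPKM in CAL27/OXA. The window before NRP2 on the plus strand of chromosome 2 is shown as the promoter of a co-receptor that was higher in both lines, and it held no CTTTGA.
NRP2, chr2:205682251-205682500, plus strand: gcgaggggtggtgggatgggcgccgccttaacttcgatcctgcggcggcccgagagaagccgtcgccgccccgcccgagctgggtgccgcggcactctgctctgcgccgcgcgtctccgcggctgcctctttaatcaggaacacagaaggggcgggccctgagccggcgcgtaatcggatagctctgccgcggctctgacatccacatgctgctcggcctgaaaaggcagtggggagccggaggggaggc

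Among the secreted class 3 semaphorins, which repel axons and act on epithelial and endothelial cells through neuropilins, the leading member differed between the lines. SEMA3F, a ligand that prefers NRP2, had 1610 counts in CAL27 cells, 289 in CAL27/5FU and 325 in CAL27/OXA. It was lower in both resistant lines to nearly the same degree, with log2 ratios of -2.48 (-2.67 to -2.30) and -2.49 (-2.67 to -2.33). SEMA3A, a ligand that prefers NRP1, had 584, 1184 and 1199 counts, with log2 ratios of 1.01 (0.87 to 1.16) and 0.85 (0.70 to 0.99), so it passed 2-fold in CAL27/5FU alone and its interval spanned the threshold there. SEMA3B, another ligand of the class, had 731, 1264 and 1937 counts and passed 2-fold in CAL27/OXA (log2 ratio 1.21, 1.09 to 1.34). Within CAL27, SEMA3F was at 11.2 FPKM, above SEMA3B at 6.52 FPKM and SEMA3A at 2.47 FPKM. In CAL27/5FU the order was SEMA3B at 12.6, SEMA3A at 5.61 and SEMA3F at 2.25 FPKM, and in CAL27/OXA it was 16.6, 4.87 and 2.17 FPKM. The sum over the class moved less, at 23.9, 26.9 and 28.4 FPKM. FPKM carries no TMM scaling, and the median log2 FPKM ratio of all tested genes to CAL27 was 0.162 and 0.133 (pseudocount 0.1). The small differences of this sum are therefore not read as a rise.

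SEMA3D and SEMA3E were low in all libraries. SEMA3D, a guidance cue also known from the heart, had 24 counts in CAL27 cells, 134 in CAL27/5FU and 103 in CAL27/OXA, so that both resistant lines lay above the parental line. Its log2 ratios were 2.38 (1.84 to 3.17) and 1.83 (1.26 to 2.62). SEMA3E, which binds PLXND1 without a neuropilin, had 126, 117 and 321 counts and was higher in CAL27/OXA alone (log2 ratio 1.15, 0.86 to 1.47). SEMA3C stayed within 2-fold at 688, 1024 and 724 counts. SEMA3D lies on the minus strand of chromosome 7, and the window before its start is shown because SEMA3D, like ROBO1, was among the genes on which these families were selected. It held no CTTTGA.
SEMA3D, chr7:85187057-85187306, minus strand: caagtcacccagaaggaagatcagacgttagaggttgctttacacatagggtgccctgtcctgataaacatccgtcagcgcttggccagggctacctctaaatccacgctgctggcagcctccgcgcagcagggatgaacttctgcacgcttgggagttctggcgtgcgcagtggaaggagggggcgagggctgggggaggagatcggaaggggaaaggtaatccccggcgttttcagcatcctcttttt

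Class 4 semaphorins span the membrane and signal mainly through B plexins. Of their 6 tested members, 2 were lower in CAL27/5FU and 4 in CAL27/OXA, with 0 higher in either line. The shares of all tested genes that were lower were 6.72% and 9.28%, and the shares that were higher were 8.46% and 6.54%. SEMA4B had 20256 counts in CAL27 cells, 10043 in CAL27/5FU and 7493 in CAL27/OXA. CAL27 held the highest level, with log2 ratios of -1.02 (-1.05 to -0.98) and -1.62 (-1.66 to -1.59). SEMA4A had 1591, 352 and 324 counts and was lower in both lines, with log2 ratios of -2.18 (-2.35 to -2.02) and -2.48 (-2.66 to -2.31). SEMA4C fell past 2-fold in CAL27/OXA alone, from 2434 counts in CAL27 to 1003, and had 1367 counts in CAL27/5FU. SEMA4G, with 89, 87 and 38 counts, was also lower in CAL27/OXA alone, but its value is uncertain because it overlaps another gene, as given below. SEMA4D, the ligand of PLXNB1, and SEMA4F were within 2-fold in both lines. The summed level of the class was 174 FPKM in CAL27, 97.7 FPKM in CAL27/5FU and 66.4 FPKM in CAL27/OXA.

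The remaining membrane semaphorins were low and went in several directions. SEMA7A, which is anchored by a lipid and binds PLXNC1 and integrins, had 138 counts in CAL27 cells, 458 in CAL27/5FU and 507 in CAL27/OXA. It was higher in both resistant lines, with log2 ratios of 1.71 (1.45 to 2.01) and 1.67 (1.41 to 1.97). Of the 4 class 6 semaphorins, which bind A plexins, 1 was higher in CAL27/5FU and 3 in CAL27/OXA. SEMA6C, the class 6 member with the highest FPKM in CAL27 (0.835), was within 2-fold in both lines at 138, 80 and 96 counts, with log2 ratios of -0.78 (-1.21 to -0.39) and -0.70 (-1.10 to -0.33). SEMA6A had 43, 30 and 310 counts, with a log2 ratio of 2.61 (2.20 to 3.16) in CAL27/OXA. SEMA6B had 124, 241 and 407 counts, with log2 ratios of 0.94 (0.63 to 1.28) and 1.51 (1.23 to 1.83). SEMA6D, with only 7, 20 and 56 counts, was higher in both lines, and its calls follow in part from the filter. The class 5 members differed: SEMA5B had 68 counts in CAL27 and 0 in both resistant lines. Against the fixed floor of 3 counts, it was at least 22.8-fold lower in CAL27/5FU and at least 25.8-fold lower in CAL27/OXA. The counting intervals had upper limits of -4.17 and -4.35 on the log2 scale. For SEMA5A the libraries held 2, 0 and 90 counts, and its log2 ratio in CAL27/OXA was 4.37 (3.41 to 8.37).

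Of the 8 tested plexins, the semaphorin receptors, 0 were more than 2-fold higher in either resistant line. This is near the shares of all tested genes, which were 8.46% in CAL27/5FU and 6.54% in CAL27/OXA. More than 2-fold lower were 2 plexins (25%) in CAL27/5FU and 4 (50%) in CAL27/OXA, beside 6.72% and 9.28% of all tested genes. PLXNB2, the receptor of these families with the highest FPKM in CAL27, had 29095 counts in CAL27 cells, 17820 in CAL27/5FU and 14306 in CAL27/OXA. Each resistant line was below CAL27, with log2 ratios of -0.71 (-0.74 to -0.69) and -1.21 (-1.24 to -1.18), so only CAL27/OXA passed 2-fold. PLXNB1 had 3353, 2393 and 1533 counts and likewise passed 2-fold in CAL27/OXA (log2 ratio -1.32, -1.41 to -1.23). PLXNB3 had 2342, 1116 and 1039 counts and passed it in both lines, with log2 ratios of -1.07 (-1.18 to -0.97) and -1.36 (-1.47 to -1.26). The summed level of the B plexins was 130, 89 and 60.6 FPKM in CAL27, CAL27/5FU and CAL27/OXA.

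A plexins, which pair with neuropilins, moved less. PLXNA3 had 3991, 2621 and 2201 counts, with a log2 ratio of -1.05 (-1.12 to -0.97) in CAL27/OXA, and PLXNA1, at 32.1 FPKM in CAL27 the leading A plexin, stayed within 2-fold at 12148, 9118 and 8073 counts. PLXNA2 and PLXNC1 were within 2-fold as well. PLXND1, the SEMA3E receptor, had 158 counts in CAL27 cells, 51 in CAL27/5FU and 203 in CAL27/OXA. It was lower in CAL27/5FU alone (log2 ratio -1.60, -2.12 to -1.17), and its log2 ratio of CAL27/OXA over CAL27/5FU was 1.77 (1.36 to 2.28). Against CAL27, the log2 ratio of PLXND1 in CAL27/OXA was 0.17 (-0.14 to 0.48). Of this receptor and its ligand SEMA3E, only the ligand was thus higher in CAL27/OXA than in CAL27.

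**Figure D2:**
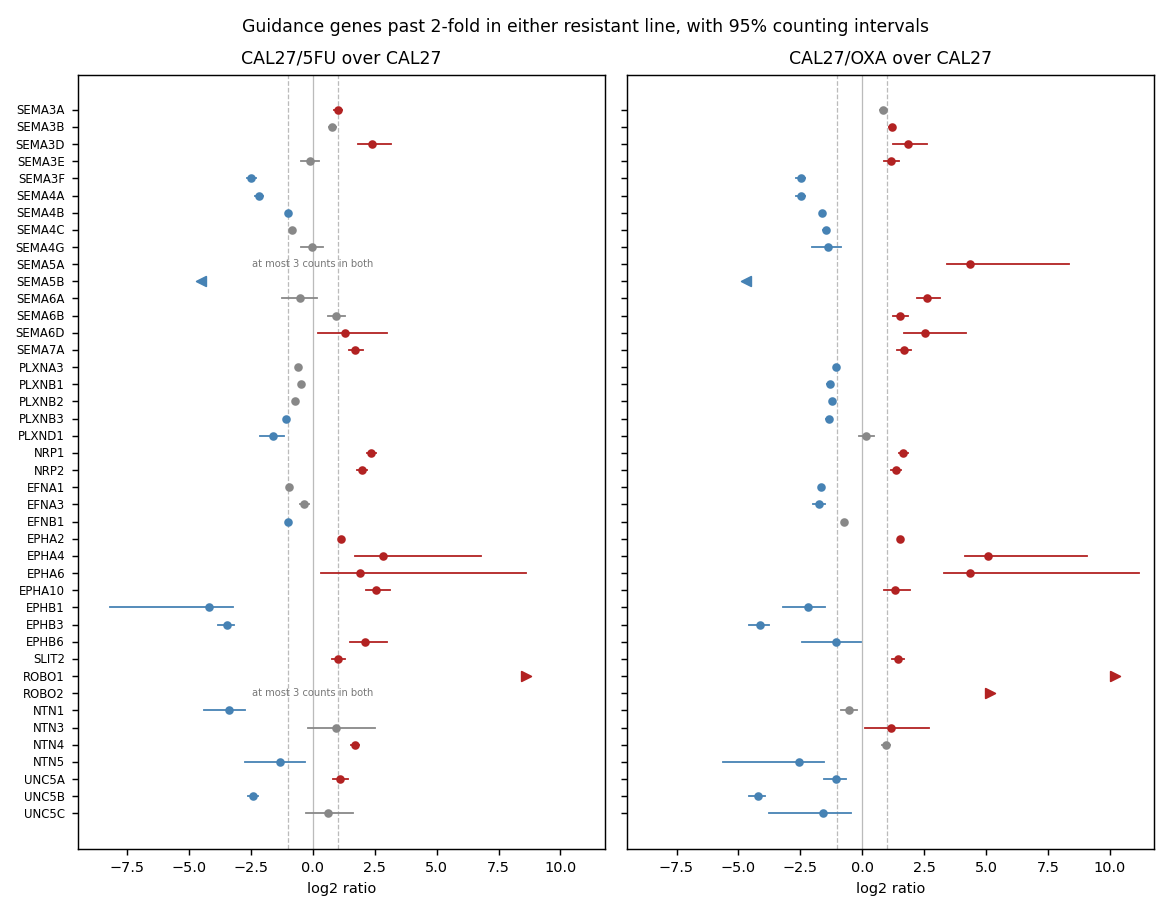
Log2 ratio of CAL27/5FU (left) and CAL27/OXA (right) over CAL27 for the 42 members past 2-fold in either line, with 95% counting intervals as lines. Red is higher, blue lower and gray within 2-fold, triangles are lower bounds for genes at 0 counts, dashed lines mark 2-fold, and EPHB6 and UNC5A stand on opposite sides in the panels.

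Ephrin-A1 and EphA2, a ligand and a receptor that bind each other on epithelial cells, moved in opposite directions. EFNA1 had 7601 counts in CAL27 cells, 3963 in CAL27/5FU and 2769 in CAL27/OXA. Its log2 ratio was -0.95 (-1.0 to -0.89) in CAL27/5FU, just inside 2-fold, and -1.65 (-1.71 to -1.58) in CAL27/OXA. EPHA2 had 4118, 9020 and 13385 counts and was higher in both lines, with log2 ratios of 1.12 (1.07 to 1.18) and 1.51 (1.46 to 1.56). Per length, CAL27 had 119 FPKM of EFNA1 and 24.9 FPKM of EPHA2, a ratio of 4.76. CAL27/5FU had 69.3 and 61.2 FPKM, a ratio of 1.13, and CAL27/OXA had 41.6 and 77.9 FPKM, a ratio of 0.533. The receptor thus exceeded the ligand only in CAL27/OXA among these libraries. EPHA2 made up 44.1% of the summed Eph receptor FPKM in CAL27 cells, 64% in CAL27/5FU and 77.7% in CAL27/OXA. EPHA2 lies on the minus strand of chromosome 1, and the window before its start held CTTTGA at 1 position, in capitals.
EPHA2, chr1:16156070-16156319, minus strand: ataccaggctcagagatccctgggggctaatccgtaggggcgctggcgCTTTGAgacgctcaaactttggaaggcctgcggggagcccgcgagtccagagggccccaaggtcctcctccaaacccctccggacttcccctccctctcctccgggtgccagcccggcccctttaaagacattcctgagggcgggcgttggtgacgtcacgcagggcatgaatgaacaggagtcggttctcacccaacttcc

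EFNA3, another ephrin, had 563 counts in CAL27 cells, 445 in CAL27/5FU and 192 in CAL27/OXA and was lower in CAL27/OXA (log2 ratio -1.73, -1.99 to -1.5). EFNA4 and EFNA5 stayed within 2-fold. EFNB1, a ligand of EphB receptors, had 3142, 1577 and 2137 counts and reached the threshold in CAL27/5FU with a log2 ratio of -1.0 (-1.09 to -0.91). EFNB2, the other abundant B ephrin, was within 2-fold at 3505, 5882 and 3366 counts. Together the ephrins summed to 186 FPKM in CAL27, 141 FPKM in CAL27/5FU and 93.7 FPKM in CAL27/OXA.

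Low EphA receptors were higher in both resistant lines. EPHA4, a receptor of both ephrin classes, had 2 counts in CAL27 cells, 26 in CAL27/5FU and 148 in CAL27/OXA. Its counts were close to the floor in CAL27 and clearly above it in CAL27/OXA, with log2 ratios of 2.83 (1.70 to 6.81) and 5.07 (4.14 to 9.08). EPHA6 had 1, 9 and 65 counts, with log2 ratios of 1.90 (0.31 to 8.62) and 4.34 (3.30 to 11.16). EPHA10, which lacks kinase activity, was highest in CAL27/5FU, at 41, 252 and 122 counts, with log2 ratios of 2.56 (2.13 to 3.13) and 1.34 (0.86 to 1.93). EPHA1 and EPHA3 stayed within 2-fold. Of the 6 tested EphA receptors, 4 were higher and 0 lower in each line. The shares of all tested genes that were higher were 8.46% in CAL27/5FU and 6.54% in CAL27/OXA, and the shares that were lower were 6.72% and 9.28%. EPHA4 and EPHA6 would be under the filter if their CAL27/OXA counts were left out of the sum, so their calls follow in part from it.

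EphB receptors, which bind B ephrins and sort epithelial cells, included the largest falls of the Eph family. EPHB3 had 925 counts in CAL27 cells, 82 in CAL27/5FU and 59 in CAL27/OXA. Both resistant lines lay far below CAL27, with log2 ratios of -3.47 (-3.85 to -3.18) and -4.11 (-4.57 to -3.78). EPHB1 had 70, 2 and 16 counts, with log2 ratios of -4.21 (-8.21 to -3.23) and -2.17 (-3.20 to -1.52). EPHB2 was within 2-fold of CAL27 in both lines, at 1648, 3084 and 1413 counts, and EPHB4 at 1815, 1625 and 1222. The ratio of EPHB2 to EPHB3 per length was therefore 0.685 in CAL27 cells, 14.5 in CAL27/5FU and 9.21 in CAL27/OXA. EPHB6, which also lacks kinase activity, had 20 counts in CAL27 cells, 93 in CAL27/5FU and 10 in CAL27/OXA, higher in CAL27/5FU (log2 ratio 2.11, 1.5 to 2.99) and lower in CAL27/OXA (-1.04, -2.45 to -0.03). The window before EPHB3 on the plus strand of chromosome 3 is shown as that of the Eph receptor lowest relative to CAL27 in CAL27/OXA, and it held no CTTTGA.
EPHB3, chr3:184561535-184561784, plus strand: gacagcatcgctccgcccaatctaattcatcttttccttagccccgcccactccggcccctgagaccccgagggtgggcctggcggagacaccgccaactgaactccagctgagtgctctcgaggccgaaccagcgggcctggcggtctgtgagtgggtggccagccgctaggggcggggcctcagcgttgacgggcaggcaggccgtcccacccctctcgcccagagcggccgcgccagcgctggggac

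**Figure D3:**
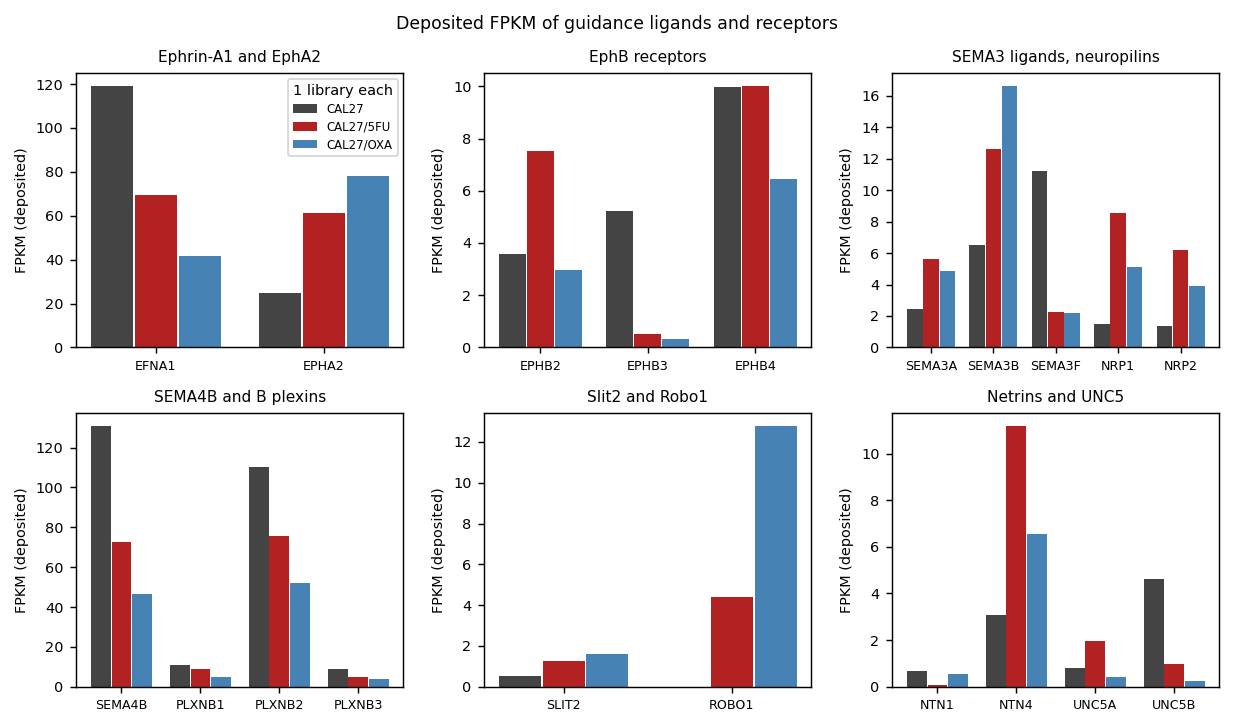
Deposited FPKM of selected ligands and receptors, as bars from 0, in CAL27 (gray), CAL27/5FU (red) and CAL27/OXA (blue), with 1 library each and no error bars. EFNA1 is above EPHA2 in CAL27 (119 and 24.9 FPKM) and below it in CAL27/OXA (41.6 and 77.9 FPKM).

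Netrins are laminin-related secreted cues, and UNC5 receptors mediate repulsion by netrin-1. NTN4, the most abundant netrin per length, had 447 counts in CAL27 cells, 1459 in CAL27/5FU and 989 in CAL27/OXA. Its log2 ratios were 1.70 (1.55 to 1.86) and 0.95 (0.79 to 1.12), so it passed 2-fold in CAL27/5FU alone. NTN1, the founding netrin, had 172, 15 and 136 counts. CAL27/5FU stood apart from the other libraries here, with a log2 ratio of -3.37 (-4.39 to -2.76) to CAL27, while that of CAL27/OXA was -0.52 (-0.86 to -0.20). NTN3 rose past 2-fold in CAL27/OXA at 8, 17 and 23 counts (log2 ratio 1.16, 0.12 to 2.70), and NTN5 was lower in both lines at 25, 9 and 3 counts.

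UNC5B, the leading netrin receptor in CAL27, had 1334 counts there, 250 in CAL27/5FU and 80 in CAL27/OXA. Its level fell in both lines, with log2 ratios of -2.41 (-2.62 to -2.23) and -4.21 (-4.59 to -3.92), and it was lower in CAL27/OXA than in CAL27/5FU (log2 ratio -1.8, -2.21 to -1.46). UNC5A had 126, 274 and 68 counts, higher in CAL27/5FU (log2 ratio 1.10, 0.80 to 1.43) and lower in CAL27/OXA (-1.06, -1.53 to -0.64). UNC5C, at 17, 27 and 5 counts, was lower in CAL27/OXA with a log2 ratio of -1.59 (-3.75 to -0.46). DCC, the attractive netrin receptor, had 0, 2 and 0 counts. The tested netrin receptors therefore were all below CAL27 by more than 2-fold in CAL27/OXA, 3 of 3, beside 9.28% of all tested genes. Only UNC5B had its whole interval past 2-fold there. UNC5C would be under the filter if the counts of its highest library were left out of the sum. The summed level of the netrin receptors was 5.49 FPKM in CAL27, 3.02 FPKM in CAL27/5FU and 0.699 FPKM in CAL27/OXA.

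The 12 members under the filter were SEMA3G, PLXNA4, EFNA2, EFNB3, EPHA5, EPHA7, EPHA8, SLIT1, SLIT3, ROBO4, DCC and UNC5D. Their highest count was 12, of EFNB3 in CAL27/5FU. They were not detected at a level that allows a comparison at this depth. EPHA5, EPHA8, ROBO4 and UNC5D had 0 counts in all 3 libraries.

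Calls in each line, side by side, were as follows. The 11 members higher in both lines were SEMA3D, SEMA6D, SEMA7A, NRP1, NRP2, EPHA2, EPHA4, EPHA6, EPHA10, SLIT2 and ROBO1, and the 9 lower in both were SEMA3F, SEMA4A, SEMA4B, SEMA5B, PLXNB3, EPHB1, EPHB3, NTN5 and UNC5B. EPHB6 and UNC5A were higher in CAL27/5FU and lower in CAL27/OXA. The shares of all tested genes with the same pairs of calls were not computed. These numbers therefore have no background and are not read as a result about these families. Since both ratios divide by the same CAL27 library, a deviation of that library would move them together. Scaling by total counts moved the median of all tested genes to 0.167 in CAL27/5FU and 0.138 in CAL27/OXA. It brought SEMA4B, PLXNB3 and EFNB1 in CAL27/5FU and PLXNA3, EPHB6 and UNC5A in CAL27/OXA under 2-fold. With this scaling, 19 members instead of 15 were higher in CAL27/5FU, and 19 instead of 18 in CAL27/OXA.

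Between the resistant lines, which do not involve the CAL27 library except in the scaling and the filter, 11 members (19.3%) were more than 2-fold higher in CAL27/OXA than in CAL27/5FU, against 4.18% of all tested genes, and 9 (15.8%) were lower, against 8.38%. The median log2 ratio of the members was -0.29 and that of all genes 0.0079. Without the 10 members that would be under the filter if their highest library were left out of the sum, 5 were higher and 7 lower. The whole interval was past 2-fold for 8 higher and 6 lower members. The higher members were SEMA3E, SEMA5A, SEMA6A, SEMA6D, PLXND1, EPHA4, EPHA6, EPHB1, ROBO1, ROBO2 and NTN1, and the lower ones were SEMA4G, EFNA3, EPHA10, EPHB2, EPHB6, NTN5 and the 3 tested UNC5 receptors. Netrins went both ways, with log2 ratios of 2.85 (2.23 to 3.87) for NTN1, -1.26 (-4.29 to 0.23) for NTN5 and -0.74 (-0.86 to -0.63) for NTN4. Eph receptors did so as well: EPHA4 (2.24, 1.72 to 2.99) and EPHB1 (2.03, 0.73 to 5.98) were higher, while EPHA10 (-1.21, -1.55 to -0.91), EPHB2 (-1.31, -1.40 to -1.22) and EPHB6 (-3.15, -4.51 to -2.46) were lower.

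Around each member, 5 tested genes on either side along the chromosome were examined (RefSeq positions, GRCh38). Of the 27 members past 2-fold in CAL27/5FU, 5 had neighbors whose median log2 ratio passed 1.5-fold in the same direction (SEMA3A, SEMA3D, SEMA5B, PLXNB3 and PLXND1), and for all 12988 genes with a position the share with such a median in either direction was 5.61%. In CAL27/OXA it was 1 of 37, PLXNB3, beside 7.4% of all genes. Both shares are of all genes and not of genes past 2-fold. SEMA3A and SEMA3D are neighbors of each other, so they are not separate cases. SRPK3, a neighbor of PLXNB3, overlaps it on the same strand. The neighbors of ROBO1 had a median log2 ratio of -0.04 in CAL27/5FU and 0.01 in CAL27/OXA.

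Around PLXND1, on chromosome 3 (129555214 to 129606676, minus strand), 8 of the 10 neighbors were past 1.5-fold lower in CAL27/5FU, with a median log2 ratio of -0.83, and 0.03 in CAL27/OXA. TMCC1, at 0.09 Mb, had 857, 400 and 1139 counts in CAL27, CAL27/5FU and CAL27/OXA, and MBD4, a DNA glycosylase at 0.12 Mb, had 2233, 1106 and 2712. Their counts in CAL27/5FU were thus low in the same way as those of PLXND1 itself. SEMA3A and SEMA3D lie 1.04 Mb apart on chromosome 7 and share most neighbors. These include ABCB1, which codes for the efflux pump P-glycoprotein and lies 2.51 Mb from SEMA3D, with 0 counts in CAL27 cells, 368 in CAL27/5FU and 1 in CAL27/OXA. For SEMA3D the neighbor median was 0.73 in CAL27/5FU and 0.25 in CAL27/OXA. In CAL27/5FU, 5 of its 10 neighbors were past 1.5-fold higher. Between SEMA3D and ABCB1, the log2 ratio in CAL27/5FU was -0.05 for DMTF1, 0.89 for TMEM243 and -0.11 for CROT. RUNDC3B, beyond ABCB1, had -0.78. On the other side were SEMA3C (0.57), CACNA2D1 (0.93), PCLO (2.38), SEMA3E (-0.11) and SEMA3A (1.01). PLXNB3 on chromosome X had a neighbor median of -0.65 in CAL27/5FU and -1.16 in CAL27/OXA, and its neighbors include L1CAM, a cell adhesion molecule of axons, with 549, 460 and 75 counts. Copy number was not measured, and its part was not tested.

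**Figure D4:**
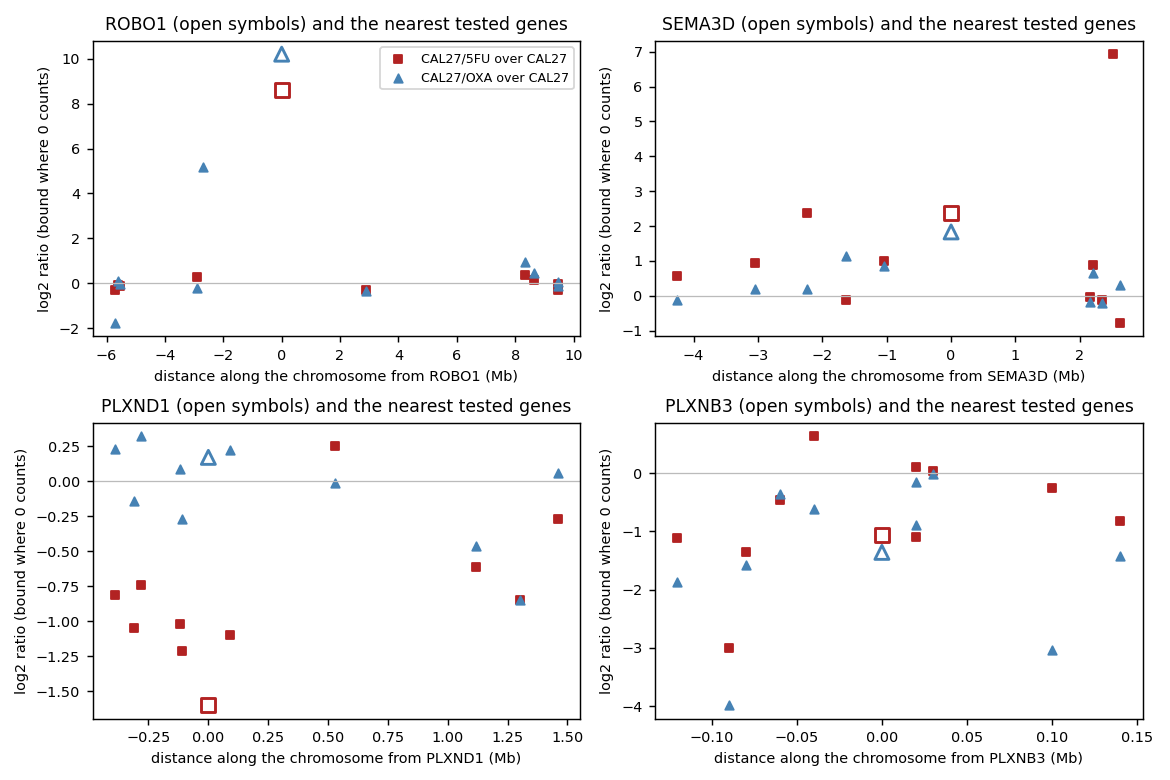
Log2 ratios over CAL27 of ROBO1, SEMA3D, PLXND1 and PLXNB3 (open symbols) and of their nearest tested genes (filled) by distance along the chromosome in Mb, red for CAL27/5FU and blue for CAL27/OXA, at the bound where a library had 0 counts. The genes near PLXND1 lie mostly below 0 in CAL27/5FU (median -0.83), while most of those around ROBO1 lie near 0.

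Of the 69 members, 8 overlap another listed gene, and whether counting used the strand is not given in the sources used here. Among the called members these are SEMA4G with MRPL43, PLXNA3 with LAGE3, EPHB1 with KY and UNC5A with HK3 on opposite strands, and PLXNB3 with SRPK3 on the same strand. KY had 0, 0 and 3 counts and HK3 had 4, 0 and 0, both far below their partners. MRPL43 had 2027, 1811 and 2459 counts beside the 89, 87 and 38 of SEMA4G, so the value of SEMA4G is uncertain. LAGE3 had 426, 432 and 423 counts and SRPK3 had 96, 44 and 58.

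Other guidance genes were taken from lists of co-receptors and partners and of signaling genes. Of 19 tested co-receptors and partners, 5 (26.3%) were higher and 4 (21.1%) lower in CAL27/5FU (median log2 ratio -0.26), beside 8.46% and 6.72% of all tested genes. In CAL27/OXA, 6 (31.6%) were higher and 3 (15.8%) lower (0.14), beside 6.54% and 9.28%. FLRT2, a ligand of UNC5 receptors, had 20 counts in CAL27 cells, 238 in CAL27/5FU and 704 in CAL27/OXA. NTNG1, a netrin-like protein anchored by a lipid that does not bind the classical netrin receptors, had 6, 266 and 392 counts. Both were higher in the resistant lines. GPC1, a glypican that binds Slit, had 17380, 5226 and 7809 counts and was lower in both, and VEGFC, a ligand of NRP2, had 585, 1331 and 2287 counts and was higher in both. NRCAM, an adhesion partner of neuropilins, had 126, 101 and 1425 counts and was higher in CAL27/OXA, whereas L1CAM was lower there. DSCAM, a netrin co-receptor, had 211, 56 and 336 counts and was lower in CAL27/5FU.

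Of the 50 tested signaling genes, 2 (4%) were higher and 1 (2%) lower in CAL27/5FU (median log2 ratio -0.14), beside 8.46% and 6.72% of all tested genes. In CAL27/OXA, 2 (4%) were higher and 5 (10%) lower (-0.13), beside 6.54% and 9.28% of all tested genes, so the share of lower genes was near that background. DPYSL3, a collapsin response mediator that acts downstream of semaphorins, had 49 counts in CAL27 cells, 462 in CAL27/5FU and 897 in CAL27/OXA, and FYN, a Src family kinase used by plexins and Eph receptors, had 95, 314 and 292. Both were higher in each resistant line. SRGAP3, which acts downstream of Robo receptors, had 638, 178 and 167 counts and was lower in both. RHOA, RAC1 and CDC42, the GTPases at the end of these pathways, stayed within 2-fold, with log2 ratios of -0.17, -0.31 and -0.29 in CAL27/5FU and -0.11, -0.13 and -0.02 in CAL27/OXA.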

How the data were processed

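RNA-seq values of 3 libraries were analysed, 1 for each line. Per the labels and the methods of the study, libraries were made with a NEBNext Ultra kit and sequenced by Novogene on an Illumina NovaSeq platform. The submitters' processing notes name CASAVA 1.8, HISAT2 2.0.5 and the build GRCh38. The counting tool, annotation and strandedness are not given in the sources used here. The authors deposited read counts per gene symbol without normalization. The authors also deposited FPKM values, which were used for levels per length within a library. The tables hold 3 more per-sample columns, by name second samples of these lines, which have no sample label here and were left out of every step.

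TMM factors were computed on the 3 count columns (edgeR 4.0.16, R 4.3.3), giving effective sizes of 38953668 to 44421127 counts. Genes averaging 10 counts or more per library were tested, log2 CPM had a prior count of 2, and past 2-fold was counted as higher or lower. The members and gene lists were chosen with earlier results of these data known. Members past 2-fold were named, with those of highest FPKM among the rest. Of the other lists, genes were named from the 5 with the largest ratio per comparison at a mean of at least 50 counts; RHOA, RAC1 and CDC42, and the neighbors named, were chosen after their values were seen. Other scalings (DESeq2 1.42.0 size factors, total counts, upper quartile), filters, prior counts, FPKM and thresholds were tried. The code was tested on simulated data. Positions and windows before starts came from RefSeq (GRCh38.p14) and strands from GENCODE 29: 18184 listed genes had a position, and 59 of the 69 members had a window. A comparison of GC or CpG content over sets was void, since only 77.9% of tested genes had a window.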

Additional observations from a re-analysis of the deposited data

Results flagged for a closer look

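EPHB6 and UNC5A moved in opposite directions in the resistant lines. EPHB6 was higher in CAL27/5FU and lower in CAL27/OXA than in CAL27, and its log2 ratio of CAL27/OXA over CAL27/5FU was -3.15. For UNC5A, with the same directions, this log2 ratio was -2.16. With 1 library per line used here, the difference between the lines was not tested, and the counting intervals of both direct ratios lay wholly past 2-fold. EPHB6 had only 10 counts in CAL27/OXA. With scaling by total counts, both genes were within 2-fold of CAL27 in CAL27/OXA, in the same direction.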

How the results depend on the processing

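Since 1 library per line was analysed, no replicate could be left out and no result has a test. No paired analysis was possible because the columns named as second samples of the lines carry no sample label and stayed out of every step. A filter does not change a ratio, so the 123 and 96 values under the other filters were the same in advance. With these included, 978 values of single members over all alternatives kept their direction and their side of 2-fold. A further 77 came under it and 6 passed it. The other 7 changed sign, all within 2-fold in CAL27/5FU: SEMA3E from -0.11 to 0.06 (total counts), 0.02 and 0.05 (FPKM with pseudocounts of 1 and 0.1), and SEMA4G from -0.04 to 0.13 (total counts), 0.00 (upper quartile), 0.05 and 0.11 (the same FPKM settings). With a mean of at least 50 counts, members higher in CAL27/OXA than in CAL27/5FU numbered 6 instead of 11. With the deposited FPKM and a pseudocount of 1, which shrinks the ratios of low genes, 7 members were higher and 4 lower in CAL27/5FU, 6 higher and 11 lower in CAL27/OXA, and 1 higher and 3 lower between the resistant lines. Past 4-fold these numbers were 6 and 7, 7 and 7, and 7 and 3. The shares of all tested genes under these other settings were not computed, so these numbers have no background beside them. The median of the members changed sign: 0.02 in CAL27/5FU became -0.02 with a mean of at least 50 counts, and -0.25 in CAL27/OXA became 0.03 with at least 1 count in any library. Counts under about 20 limit the intervals of NTN3, NTN5, UNC5C, EPHA6 and SEMA6D.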
